A study of Mus musculus with 8 samples.

Results

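Kdm2a, Kdm2b, Kdm4a, Kdm4b, Kdm4c, Kdm4d, Kdm8 and Riox1 are the mouse genes for enzymes that have been described as demethylases of lysine 36 of histone H3 (H3K36). These 8 genes were taken by name for that described activity, with no threshold on a measured value, from the 21887 protein-coding genes of the RefSeq annotation. Their chromatin was read from H3K36me3 ChIP-seq of feeder-free mouse embryonic stem cells grown as spheres in 2i medium, in which PD0325901 (1 µM) blocks MEK, CHIR99021 (3 µM) blocks GSK3 and LIF (1000 U/ml) is added. Knockdown cells carried a Setd2 knockdown induced by 1 µg/ml doxycycline over 4 days, and control cells, labelled with the genotype control, had no doxycycline. Each condition had 2 ChIP and 2 input libraries, which the authors merged before they called peaks, so each condition is 1 peak list with no replicate spread and no test between conditions. The labels do not say whether the line is 1 clone or whether control and knockdown cells are the same line, and the effect of doxycycline cannot be told apart from that of the knockdown.

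H3K36me3 is laid down along transcribed genes by Setd2, which travels with elongating RNA polymerase II, and in most genes it builds up toward the 3′ end. Demethylases of the JmjC type remove methyl groups by an oxygen- and 2-oxoglutarate-dependent reaction. Kdm2a and Kdm2b act mainly on H3K36me2 and bind unmethylated CpG DNA through a CXXC zinc finger, while Kdm4a, Kdm4b and Kdm4c act on the trimethylated forms of H3K9 and H3K36. Kdm4d is known mainly as an H3K9 demethylase, and for Kdm8 and Riox1 hydroxylation of other proteins is better established than demethylation of H3K36. A peak over one of these genes says where the mark was found and nothing of how much RNA or enzyme the gene gives.

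After Setd2 knockdown no peak was called over any of the 8 genes. The count of genes with a peak midpoint between gene start and end was 0 of 8 in knockdown and 7 of 8 in control, where over all protein-coding genes the share was 4.95% in knockdown and 41.2% in control. No base pair of the 8 genes lay under a knockdown peak, against 98307 of 544845 bp, or 18.04%, under control peaks. The same summed share over all protein-coding genes was 9.37% in control. The median covered share of the 8 genes was 0% in knockdown and 16.6% in control, and over all protein-coding genes it was 0% in both. Among genes with a control peak, the median control share was 18.5% for the 7 and 37.9% over all protein-coding genes, without regard to gene length. Of the genes with a control peak, 89.4% had none in knockdown, so the loss in 7 of 7 is close to what any marked gene showed and is not a result about these genes. In bulk chromatin, fewer cells that carry the mark and less of it in each cell cannot be told apart.

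**Figure D1:**
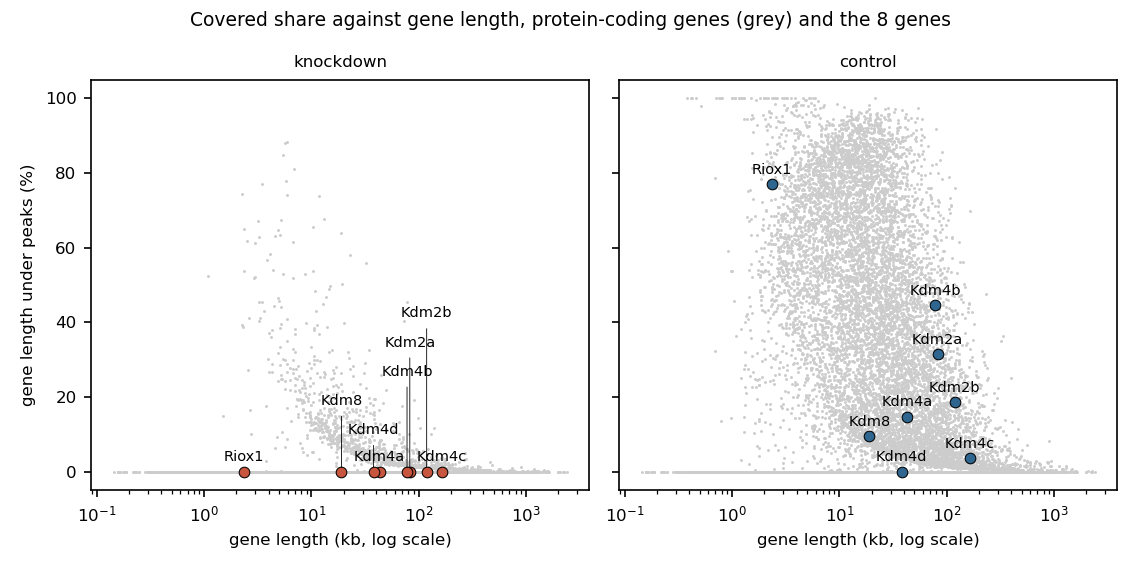
Percent of gene length under peaks (vertical axis) against gene length in kb (log scale) in the knockdown list and the control list, with each protein-coding gene in grey and the 8 genes in colour. All 8 sit at 0% in knockdown, and in control they run from 0% for Kdm4d to 76.9% for Riox1.

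The merged libraries and lists set what can be seen. The knockdown ChIP kept 29416169 tags after removal of duplicates and the control ChIP 36244210, and the lists held 3040 peaks in knockdown and 30634 in control. Setd2, the targeted gene, had 0 knockdown and 11 control peaks (0% of its length in knockdown and 40.1% in control), which does not measure its transcript. Among marker genes of pluripotency, 3 of 10 had a knockdown peak and 8 of 10 a control peak, with median control coverage of 84.9%. Klf2, counted without a control peak because no peak midpoint lay inside it, was covered over 41.3% in knockdown and 95.1% in control. Among markers of fibroblasts, hepatocytes, blood and neurons, 0 of 9 had a peak in either list.

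The control coverage of the 8 genes differed widely, also when each was set beside genes of its own length. Riox1 (chr12:83950608-83952953), the shortest at 2346 bp, was covered over 76.9%, followed by Kdm4b with 44.5%, Kdm2a with 31.4%, Kdm2b with 18.5%, Kdm4a with 14.7%, Kdm8 with 9.53% and Kdm4c with 3.54%, and Kdm4d had none. Covered share falls with gene length in this list, since the median of marked genes was 63.3% up to 5 kb and 7.07% from 100 to 200 kb. Set among marked genes of the same length class, Kdm4b (50 to 100 kb) stood at percentile 83.2, Kdm2b (100 to 200 kb) at 76.2, Riox1 (up to 5 kb) at 72.7 and Kdm2a (50 to 100 kb) at 69.5. Kdm4c stood at percentile 30.6 of the class from 100 to 200 kb, Kdm4a at 23.4 of the class from 20 to 50 kb, and Kdm8 at 2.05 of the class from 5 to 20 kb. The order by raw share therefore differs from the order within length classes, where Kdm8 stood lowest of the 7 marked genes. With control peaks of a caller score of 100 or more, Kdm4c and Kdm8 had no peak and Kdm2b was covered over 10.8%, below Kdm4a with 14.7%. With the 3040 top-scoring control peaks, Kdm4b was covered over 22.1%, Kdm4a over 14.7% and Kdm2b over 8.19%, and the other 5 genes, Riox1 and Kdm2a among them, had none.

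**Figure D2:**
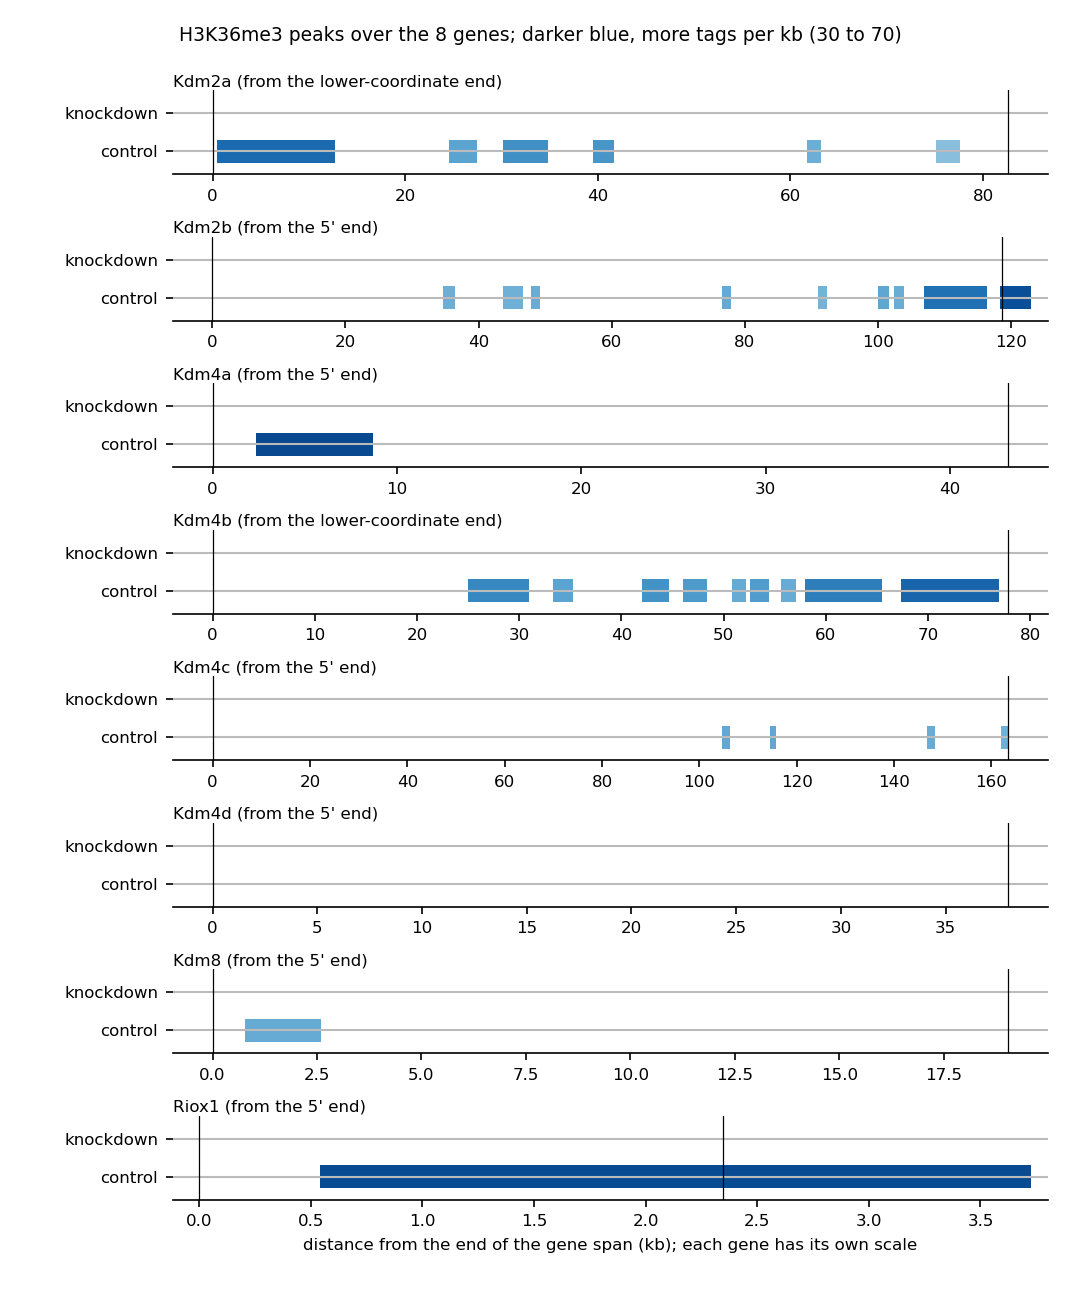
Peaks over each of the 8 genes, with knockdown above control, against distance in kb from the 5′ end (or from the lower-coordinate end for Kdm2a and Kdm4b), vertical lines at the ends of the gene span, and darker blue for more tags per kb. The knockdown rows are empty, and in control the single peaks of Kdm4a and Kdm8 lie near the 5′ end, the 4 of Kdm4c begin 104.8 kb or more from it, and those of Kdm2b lie in the middle of the gene and toward its 3′ end, where the longest is.

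The Kdm2 genes carried several peaks of unequal size. Kdm2a (chr19:4316144-4398721), for a CXXC protein of CpG islands, had 0 knockdown peaks and 6 control peaks. The longest of the 6 spanned 12243 bp with 718 tags, or 58.6 tags per kb (54.4 to 63.1, exact Poisson 95% interval of the tag count), and began 0.50 kb inside the lower-coordinate end. The other 5 Kdm2a peaks were 1431 to 4670 bp long, and the sparsest, at 35.1 tags per kb (28.1 to 43.3), lay near the opposite end. The intervals of these outermost Kdm2a peaks do not overlap. The small gene 9430078G10Rik lies within Kdm2a at that opposite end and had no base pair under a peak in either list. The tag counts are those of the authors' caller, without normalization, and these intervals, like all others here, cover counting error only.

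Kdm2b (chr5:122870664-122989270, minus strand) encodes the Kdm2a relative that brings a variant Polycomb complex to CpG islands. RefSeq places starts of Kdm2b transcripts in 2 stretches, at the 5′ end and 88903 bp inside the span, and the internal starts are known to give a shorter protein without the JmjC domain. The control coverage differed between the stretches: upstream of the internal start 0% in knockdown and 8.78% in control, downstream of it 0% in knockdown and 47.7% in control. The 4 control peaks upstream held 39.95 tags per kb (35.6 to 44.6) and the 4 downstream 51.7 tags per kb (48.0 to 55.6), intervals that do not overlap. On each side 1 of the 4 had a caller score of 100 or more. Most of the downstream tags came from a 9477 bp peak with 539 tags at 106.8 to 116.3 kb from the 5′ end. The other downstream peaks, 1318 to 1645 bp long, held 38.7 to 42.6 tags per kb, and the upstream ones 39.3 to 41.1. The density difference between the stretches thus came from the 1 long peak, which also gave most of the downstream coverage. This long peak does not lie at the internal start. A 9th control peak reached 240 bp into the 3′ end, and these bases are counted in the 47.7%. Its midpoint lay outside Kdm2b on the side of Rnf34, a ubiquitin ligase gene whose 3′ end faces that of Kdm2b. The sequences before the long and the internal start are shown because Kdm2a and Kdm2b themselves bind CpG. CG is in capitals, and the sequences are from RefSeq (GRCm38.p6), minus strand, at chr5:122989271-122989349 and chr5:122900368-122900617.
Kdm2b long start: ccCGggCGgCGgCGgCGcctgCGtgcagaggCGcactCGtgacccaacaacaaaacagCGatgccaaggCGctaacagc
Kdm2b internal start: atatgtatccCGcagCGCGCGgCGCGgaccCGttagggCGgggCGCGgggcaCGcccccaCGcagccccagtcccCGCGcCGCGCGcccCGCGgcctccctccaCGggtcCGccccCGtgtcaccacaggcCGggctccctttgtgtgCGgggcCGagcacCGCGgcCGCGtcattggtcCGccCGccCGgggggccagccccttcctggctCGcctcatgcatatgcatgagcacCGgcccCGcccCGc
The 79 bases before the long start hold 10 CG and the 250 bases before the internal start hold 36. The 79 bases run from the end of the gene span to the end of the promoter window. They do not adjoin the listed long start, whereas the 250 bases adjoin the internal one. CG reads the same on both strands. At least 1 CG was present in 74.4% and 93.4% of the same bases of 21263 promoter windows of protein-coding genes, and at least as many as in Kdm2b in 5.76% and 3.27%. Neither window was touched by a peak of either list. The lncRNA gene Gm33118 lies within Kdm2b upstream of the internal start and had 0% of its length under knockdown and 29.2% under control peaks.

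In the Kdm4 family, whose members share the JmjN and JmjC domains of the catalytic core, control coverage ran from 0% to 44.5%. Kdm4b (chr17:56325970-56403774) had 0 knockdown peaks and 9 control peaks. No control peak lay within 25.005 kb of its lower-coordinate end, and of 10 equal bins along the gene the lowest 3 had 0% coverage and the highest 89.3%. Its highest-coordinate peak spanned 9628 bp with 575 tags (59.7 tags per kb, 54.9 to 64.8) and had the highest caller score of all peaks in these genes, 1026 in the authors' table. The lncRNA gene Gm32715 lies within Kdm4b and had 0% of its length under knockdown peaks and 75.04% under control peaks, and unstranded peaks cannot be given to either gene.

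Kdm4a (chr4:118136957-118180090, minus strand), which encodes a demethylase with a double Tudor domain that reads methylated histones, had 0 knockdown peaks and 1 control peak. This peak spanned 6355 bp with 426 tags, or 67.0 tags per kb (60.8 to 73.7), the densest in the 8 genes and at percentile 96.2 among 25627 peaks called inside protein-coding genes in control. It lay 2.33 to 8.68 kb from the 5′ end of the gene span, and the last 7 of 10 equal bins of Kdm4a had no coverage. The pseudogene Gm23382 lies within Kdm4a and had no base pair under a peak in either list. The stretch before the Kdm4a start is shown because the peak sits next to the 5′ end, with CG in capitals, from RefSeq (GRCm38.p6), minus strand, at chr4:118180091-118180293.
Kdm4a: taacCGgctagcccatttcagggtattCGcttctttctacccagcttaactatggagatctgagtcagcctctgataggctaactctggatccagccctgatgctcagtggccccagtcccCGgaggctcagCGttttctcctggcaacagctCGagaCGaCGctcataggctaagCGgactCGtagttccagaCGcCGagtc
These 203 bases hold 11 CG, and 36.1% of promoter windows held at least as many in the same bases. No peak of either list touched the window.

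Kdm4c (chr4:74242497-74405864, plus strand), the longest of the 8 genes at 163368 bp, had 0 knockdown peaks and 4 short control peaks. They were 1141 to 1698 bp long with 48 to 69 tags, and their densities of 39.3 to 42.1 tags per kb differed by less than their counting intervals. The first began 104.8 kb from the 5′ end, and all 4 lay in the last 4 of 10 equal bins.

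Kdm4d (chr9:14462548-14500522, minus strand) was the gene without a peak in either list. The nearest control peak began 1.46 kb beyond its 5′ end, over Cwc15, which encodes a spliceosome-associated protein and is read in the other direction, its span beginning 82 bp away. Cwc15 was covered over 0% in knockdown and 86.3% in control, by a control peak of 9673 bp with 549 tags. The stretch between both gene spans is shown because the mark was called on 1 side of it, with CG in capitals, from RefSeq (GRCm38.p6), on the minus strand, at chr9:14500523-14500603.
Kdm4d and Cwc15: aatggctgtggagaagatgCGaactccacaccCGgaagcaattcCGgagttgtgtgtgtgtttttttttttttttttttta
The 81 bases hold 3 CG, and 56.0% of promoter windows held at least as many in the same bases. The pseudogene Kdm4dl lies near Kdm4d, and the sources used here do not say how reads that match both were placed.

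Kdm8 and Riox1 encode JmjC hydroxylases outside the Kdm2 and Kdm4 families. Kdm8 (chr7:125444620-125463651, plus strand) had 0 knockdown peaks and 1 control peak of 1814 bp with 74 tags, or 40.8 tags per kb (32.03 to 51.2). It lay 0.79 to 2.60 kb from the 5′ end, and the last 8 of 10 equal bins had no coverage. Riox1 had 0 knockdown peaks and 1 control peak of 3186 bp with 212 tags, or 66.5 tags per kb (57.9 to 76.1), denser than that of Kdm8 by more than the counting intervals and within the interval of the Kdm4a peak. The Riox1 peak began 0.54 kb from the start and ran beyond the 3′ end. It also lies within Heatr4, a gene of the opposite strand that was covered over 0% in knockdown and 8.03% in control. Riox1 lies wholly within Heatr4, and the unstranded peak cannot be given to either gene. The bases before Riox1 are shown because the peak starts so close to them, with CG in capitals, from RefSeq (GRCm38.p6), plus strand, at chr12:83950358-83950607.
Riox1: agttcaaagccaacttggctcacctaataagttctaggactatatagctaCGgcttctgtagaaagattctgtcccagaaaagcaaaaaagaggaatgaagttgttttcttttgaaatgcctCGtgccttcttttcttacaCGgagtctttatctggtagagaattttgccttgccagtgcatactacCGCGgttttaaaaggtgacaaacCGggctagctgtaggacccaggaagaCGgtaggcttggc
The 250 bases hold 7 CG, and 58.6% of promoter windows held at least as many. No peak of either list touched the window.

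The starts of the genes were free of peaks, as were nearly all starts. Windows from 250 bases before to 50 after the start were listed for 6 of the 8 genes, and none of their 10 windows was touched by a knockdown or a control peak. Over protein-coding genes, 0.103% of 21263 windows were touched in knockdown and 1.71% in control. Along 5900 stranded genes of 10000 bp or longer with a control peak, mean control coverage was 8.87% in the first of 10 equal bins and 50.4% in the last, and mean knockdown coverage was 0.177% in the first and 1.30% in the last. Kdm2b had 26.4% in bins 6 to 10 against 10.7% in bins 1 to 5, and 76.2% of the 5900 genes were likewise higher in the 3′ bins. Kdm4c had coverage in bins 6 to 10 and none before, a pattern shared by 24.0% of genes. Kdm4a (29.5% in bins 1 to 5) and Kdm8 (19.1%) had the reverse, with none in bins 6 to 10, as in 478 genes or 8.10%. Kdm4a and Kdm8 are 2 of the 4 genes here that this profile could hold, too few to compare as a group.

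**Figure D3:**
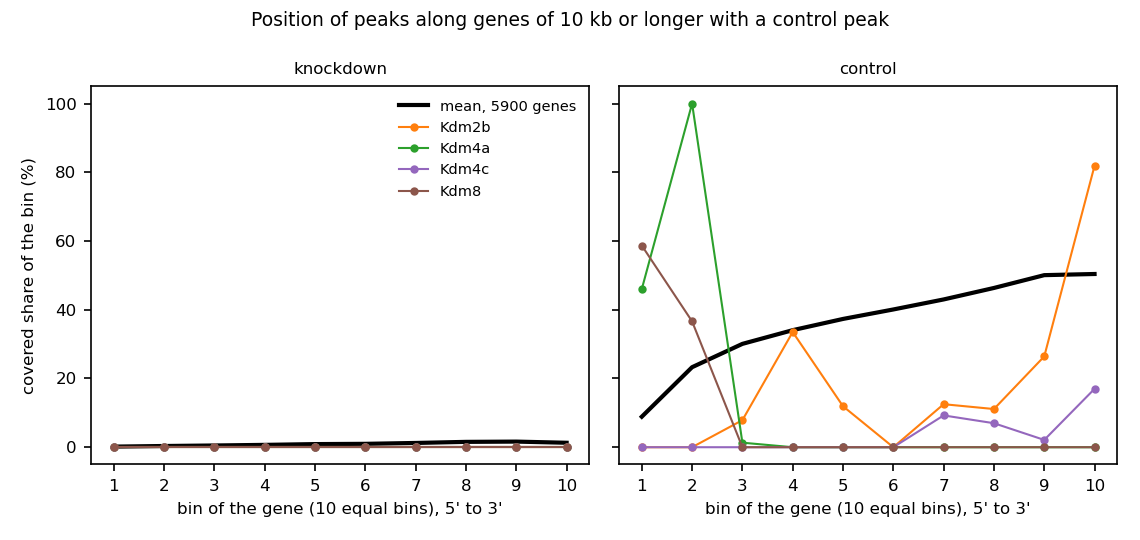
Percent of each of 10 equal bins of the gene under peaks, 5′ to 3′, in the knockdown list and the control list, for Kdm2b, Kdm4a, Kdm4c and Kdm8 and as the mean of 5900 genes of 10000 bp or longer with a control peak. In control the mean climbs toward the 3′ end, Kdm4a and Kdm8 are covered in the first 2 bins and almost nowhere else, and Kdm2b reaches 81.9% in the last.

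Pooled over genes, the 30 control peaks with midpoints in the 8 genes were shorter and sparser at the median than genic peaks in general. Of the 30, 9 lay in Kdm4b, 8 in Kdm2b and 6 in Kdm2a, while Kdm4a, Kdm8 and Riox1 gave 1 each. The pooled values therefore describe mostly Kdm4b, Kdm2b and Kdm2a and not the genes equally. Their median length was 1876 bp and their median density 42.3 tags per kb, against 2597 bp and 46.7 tags per kb for all genic control peaks, meaning those with a midpoint in a protein-coding gene. In caller score they ran from 52.7 to 1026, in fold over local background from 2.75 to 6.52, and their highest empirical FDR was 0.42%, all in the authors' table. When genic control peaks were cut into 10 equal groups by density, 18 of the 30 fell in the sparsest 4 groups, and those of Kdm4a and Riox1 fell in the densest.

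None of the 30 was overlapped by a knockdown peak, which by a floor of 3 counts allows a share of up to 10% if peaks of 1 list are taken as independent, whereas 3.85% of all genic control peaks were overlapped. The overlapped share of control peaks depended on density. It was 0.702% to 0.897% in the sparsest 4 groups and 23.0% in the densest, where Kdm4a and Riox1 lie. A count of 0 of 30 is thus near the background for peaks of these densities and is not a result about these genes.

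Depth limits what a missing knockdown peak can show. The knockdown library kept 0.812 times as many tags as the control library, and the sparsest knockdown peak held 30.01 tags per kb. If the mark had stayed the same and depth alone had changed, the 30 control peaks would hold 28.5 to 54.4 tags per kb at the knockdown depth. At that depth 1 peak, in Kdm2a, would lie below every knockdown peak and 8 below the lowest 5% of them, while 12 would lie above the knockdown median of 36.7 tags per kb. The peaks of Kdm4a and Riox1 would hold 54.4 and 54.0 tags per kb, each above 99.3% of knockdown peaks. The sparse peaks of Kdm4c and Kdm8 would lie in the lower part of the knockdown list, within the range of densities at which peaks were called. Of knockdown peaks, 1.68% to 16.1% lay at or below their scaled densities. The Kdm2b peaks among the 30, apart from the one of 9477 bp, would lie in that part as well, with 0.822% to 20.5%. For the sparsest peaks of Kdm2a and Kdm4b this share was 0% and 6.38%.

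**Figure D4:**
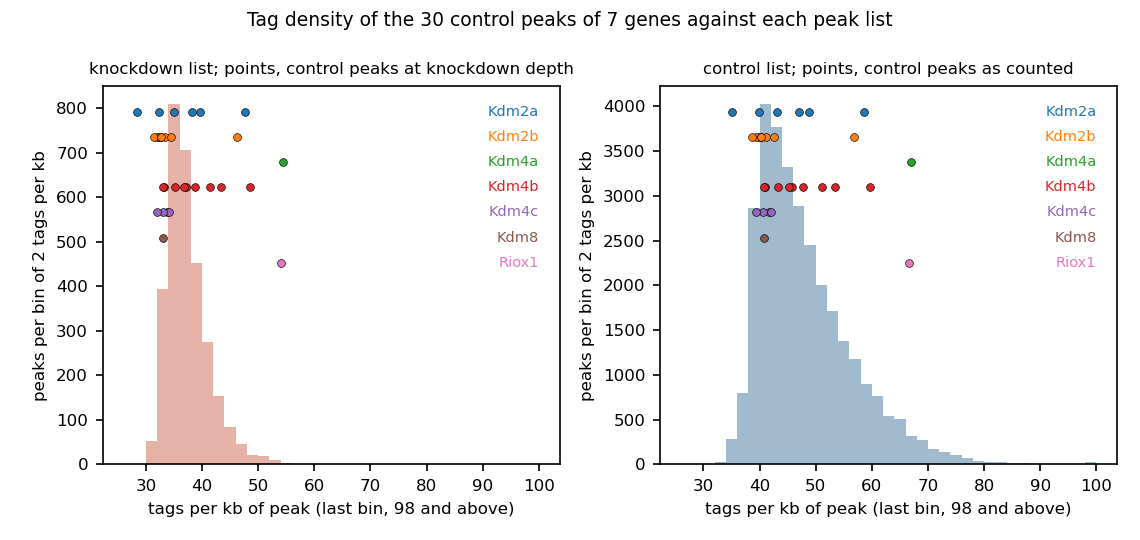
Peaks per bin of 2 tags per kb in the whole knockdown list and the whole control list, with points for the 30 control peaks of the 7 marked genes, scaled to knockdown depth on the side of the knockdown list and as counted on the side of the control list. The points of Kdm4a and Riox1 lie to the right of nearly all knockdown peaks. Those of Kdm4c, Kdm8 and, apart from its longest peak, Kdm2b lie toward their left edge.

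Knockdown peaks were called close to some of these genes. The nearest to Kdm4b lay 6.67 kb away over Uhrf1, the maintenance factor of DNA methylation, which was covered over 16.04% in knockdown and 92.99% in control. Kdm4b itself was at 0% in knockdown and 44.5% in control. The nearest to Kdm4a lay 29.96 kb away over Ptprf, a receptor tyrosine phosphatase gene covered over 1.58% in knockdown and 55.2% in control. These distances were 99.2 kb for Kdm2b (over Tmem120b), 136 kb for Riox1 (nearest gene Acot6), 205 kb for Kdm8 (over Gtf3c1) and 299 kb for Kdm4d (nearest gene Sesn3). They were longest for Kdm2a, with 887 kb (over Sf3b2), and Kdm4c, with 4519 kb (nearest gene Cdk5rap2). Where only a nearest gene is named, the midpoint of the knockdown peak lay outside protein-coding genes. It was 11166 bp from Acot6, 113507 bp from Sesn3 and 494419 bp from Cdk5rap2.

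Of the 16 protein-coding genes next to the 8, Uhrf1 and Ptprf were the 2 with a knockdown peak, and 11 had a control peak, where the shares over all protein-coding genes were 4.95% in knockdown and 41.2% in control. In control 8 of the 16 were covered over a larger share than the gene they adjoin. St3gal3, a sialyltransferase gene on the 3′ side of Kdm4a, had 0% in knockdown and 7.47% in control, and Rnf34 beside Kdm2b had 0% in knockdown and 33.0% in control. Nsmce1, which encodes a subunit of the SMC5/6 complex and faces the 3′ end of Kdm8, had 0% in knockdown and 36.1% in control. Frmd3 and Dmac1, on either side of Kdm4c, had no peak in either list. Ptprs beside Kdm4b had 0% in knockdown and 54.9% in control, Grk2 and Rhod beside Kdm2a 0% in knockdown and 35.3% and 31.0% in control, and Orai1 beside Kdm2b 0% in knockdown and 26.8% in control. Numb beside Riox1 had 0% in knockdown and 3.19% in control, and Acot2 (Riox1), Endod1 (Kdm4d) and 4930571K23Rik (Kdm8) had no peak in either list.

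Related genes were counted in the same way, and over all protein-coding genes 4.95% had a knockdown peak, 41.2% a control peak, and 89.4% of those with a control peak none in knockdown. Of 25 other demethylase and JmjC genes, 3 had a knockdown peak and 20 a control peak, with a median control coverage of 36.7%. The 3 were Kdm3a, an H3K9 demethylase gene with 8.20% in knockdown and 86.1% in control, Hspbap1 with 6.99% in knockdown and 63.7% in control, and Kdm3b with 2.40% in knockdown and 64.2% in control. Jmjd8 had 0% in knockdown and 87.2% in control, the highest control coverage of the 25. Of 9 partners of Kdm2b in its Polycomb complex, 1 had a knockdown peak and 4 a control peak. Usp7, a deubiquitinase gene, had 1.92% in knockdown and 55.8% in control, and Skp1 had 0% in knockdown and 58.2% in control. Pcgf1 and Ring1, counted without a control peak, had 0% in knockdown and 56.0% and 53.6% in control, with no peak midpoint inside the gene. All 7 H3K36 methyltransferase genes had a control peak and 1 had a knockdown peak, Nsd1, with 1.54% in knockdown and 34.4% in control. These are counts over lists, and no test of a difference between them was possible with 1 peak list per condition.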

How the data were processed

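H3K36me3 ChIP and input libraries, 2 of each per condition, were grouped by the labels. Per the submitters' processing notes FastQC 0.11.5, Bowtie 1.1.2 and build mm10 were used. Per the file headers, peaks were called with MACS 1.4.2 on merged replicates against merged inputs (p cutoff 1e-05, 1 tag kept per position, larger data set scaled to the smaller). The sources used here name no spike-in. Duplicate removal took 23.9% of knockdown and 14.7% of control ChIP tags.

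The deposited tables give for each peak the raw count of tags found by the authors' caller. They also give a deposited score (the caller's p-value on a negative log10 scale, times 10), the authors' fold enrichment, a ratio to local background, and the deposited empirical FDR in percent. The deposited BED files hold the peaks with an FDR of 5% or less.

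Genes, promoter windows and strands came from RefSeq tables of GRCm38.p6, the mm10 assembly. All 8 genes matched by symbol. Strand was taken from the promoter windows, which gave it for 6 of the 8. A gene had a peak when a peak's midpoint lay in its span. Overlap meant at least 1 bp. Tags per kb are tags over peak length, with exact Poisson intervals at 95%. Python 3.11.15, numpy 2.4.6, pandas 2.3.3 and scipy 1.17.1 were used, and coverage counts were tested on simulated intervals. All 8 genes, their overlapping and adjacent genes, the genes at the nearest knockdown peaks and 3 related lists were to be named. From each list these are the 2 genes with the highest control coverage and each gene with a knockdown peak. Ring1 was added for its control coverage without a peak midpoint. The 8 genes and the related lists were chosen with earlier results of these data known. Alternatives were another assignment rule, longer spans, stricter peak thresholds, a shortened control list, unshared stretches and a coverage minimum.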

Additional observations from a re-analysis of the deposited data

How the results depend on the processing

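The knockdown results did not move: 0 genes had a knockdown peak and the median knockdown coverage was 0% in every setting run. Only spans longer by 5 kb could have raised them, since no base pair of the 8 genes lay under a knockdown peak. FDR of 5% or 1% or less, score of 100 or more, unshared stretches and coverage of at least 10% only remove peaks or sequence. The control list cut to 3040 peaks left the knockdown list as it was, and 1 bp of overlap could add no peak. With 1 bp of overlap and with coverage of at least 10% the count was run and the median coverage was not. The number of genes with a control peak stayed between 5 and 7, except that it was 3 with the 3040 top-scoring control peaks (Kdm2b, Kdm4a and Kdm4b). The median control coverage, 16.6%, was 17.9% with longer spans, 12.8% at a score of 100 or more, 0% with the shortened list and 14.7% over unshared stretches, where Riox1 has none and 7 genes are left. The median density, 42.3 tags per kb, was 42.6 with 1 bp of overlap, 42.8 with longer spans, 48.8 at a score of 100 or more, 58.3 with the shortened list and 42.1 over unshared stretches. With a score of 100 or more Kdm4c and Kdm8 had no peak. No paired analysis was possible because the authors merged the replicates before calling peaks, and for the same reason no replicate could be left out.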
